A study of Oryza sativa Indica Group with 6 samples.

Results

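The protein phosphatases of type 2C, or PP2Cs, are a large family of plant enzymes that remove phosphate from serine and threonine residues of other proteins. Their transcripts were followed in seedlings of 3 rice lines. The genes were taken by name: every gene whose symbol or synonym in RefSeq reads PP2C followed by a number, with or without the prefix Os. Of 60 such genes, 55 had a probe set assigned to that gene alone, out of 17905 genes with such a probe set on the Affymetrix Rice Genome array. The 55 genes were covered by 72 probe sets, and each gene was read from the probe set with the highest mean signal over all arrays. OsPP2C41, OsPP2C49, OsPP2C50, OsPP2C65 and OsPP2C77 had no such probe set and were not analysed here.

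PP2Cs act as single subunits that need magnesium or manganese, unlike the multi-subunit phosphatases of the PP2A type. The best known plant members, those of clade A, bind and inactivate the SnRK2 protein kinases. When the stress hormone abscisic acid (ABA) is present, its receptors of the PYR/PYL/RCAR family occupy the active site of these phosphatases, and the released kinases phosphorylate bZIP transcription factors that switch on genes of dehydration tolerance. ABA raises the transcripts of many clade A genes themselves, so the pathway feeds back on its own inhibitors. Members of other clades act on mitogen-activated protein (MAP) kinases or on receptor kinases, among them the rice immune receptor XA21.

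The study compared the Basmati lines OsPE, Osoc and Ossl, each described as a T-DNA insertion mutant, with 2 arrays per line that the design text calls biological replications. All 6 arrays carry total RNA of seedlings taken 15 days after germination under optimal growth conditions. The insertion sites, the genes they touch, the meaning of the line names and whether a line descends from 1 transformant are not stated in the labels. All 3 groups carry T-DNA and no untransformed line was used here, so every value compares mutants with each other. Nothing in the labels says which tissue of the seedling was taken, and in whole tissue fewer cells of a type and less RNA per cell cannot be told apart.

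The deposited signals were on a linear scale with array medians of 37.3 to 42.8, and arrays of a line correlated at 0.972 to 0.976 against 0.962 to 0.969 between lines. All 8 leaf markers were above the 40th percentile of every array, while 2 of 9 root markers and 5 of 9 grain markers were. The summed leaf marker signal was 117335 to 118210 in OsPE, 120260 to 122051 in Osoc and 118514 to 135093 in Ossl, most of it from CAB2R and OsrbcS. Of the 8 leaf markers, 3 were higher and none lower in Osoc than in OsPE (limma). In Ossl none was higher and 1 lower than in OsPE, and 1 was higher and 5 lower than in Osoc. Among genes at least as bright as the first quartile of the tested PP2C genes, 8.9% were higher in Osoc than in OsPE. In Ossl 6.49% of those genes were lower than in OsPE, and 13% were higher and 10.6% lower than in Osoc. Among the leaf markers the chlorophyll synthesis gene PORA differed most, with 864 and 961 in OsPE, 2074 and 2043 in Osoc, and 983 and 963 in Ossl. The summed root marker signal was 2076 to 2183 in OsPE, 1953 to 1973 in Osoc and 1742 to 1765 in Ossl, so that the lines did not overlap. Most of that sum came from Lsi1, at 1411 to 1673. With AMT1-2, at 151 to 326, it was the root marker pair detected on all arrays. Lsi2 and PT6 read 1.1 to 21.5, and IRT1, NAS1, NAS2, NRT2.3 and PT2 read 1.9 to 85.5. IRT1, NRT2.3 and PT2 had their highest mean in Ossl, NAS1 in Osoc and NAS2 in OsPE. Of 7 tested root markers 1, AMT1-2, was lower in Ossl than in OsPE (limma), beside 3.81% of all probe sets. None passed in the other comparisons. The RNAs added as labelling controls were lower in Ossl than in the mean of the other lines, by 0.44 on the log2 scale at their 3' probe sets and by 1.29 at their 5' probe sets. The actin 3' signal exceeded the 5' signal by 4.98 on the log2 scale on the first Ossl array and by 3.69 to 3.997 on the other arrays. The same 3' to 5' difference of gapdh, a dim control here, was 1.154 and 1.32 on the Ossl arrays and -0.81 to 0.03 on the others. That of the control ef1a was -0.535 and -0.484 on the Ossl arrays, within the -1.192 to 1.215 of the others. The part of these differences in the results below was not tested.

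Most PP2C transcripts were easy to measure in these seedlings. The mean signal over the 6 arrays had a median of 1017 over the 53 tested genes, with quartiles of 506 and 1895, beside a median of 777 over all genes tested. The test took only probe sets brighter than the 40th percentile on 2 or more arrays, and 50 of the 53 PP2C genes were so on all 6. OsPP2C18 and OsPP2C31 were too dim to be tested. OsPP2C05 was the brightest, with 7869 and 7814 in OsPE, 8257 and 8081 in Osoc and 6860 and 7928 in Ossl. OsPP2C01 read 5145 and 4867 in OsPE, 5397 and 5164 in Osoc and 5160 and 5059 in Ossl. Neither of these bright genes passed the test in any comparison, with adjusted p-values of 0.222 to 0.848 (limma).

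The differences between lines were small, and they lay mostly on the low side in Osoc. Each comparison was tested with limma on log2(signal + 16), with Benjamini-Hochberg adjustment over all 39629 probe sets tested and a threshold of 0.05. A fold is a ratio of signal + 16. In all, 17 of the 53 PP2C genes, or 32.1%, passed in at least 1 comparison, beside 16.8% of all probe sets and 25.7% of all genes read by 1 probe set each. Since bright genes pass more often, the like share was 35.4% among genes with a mean signal at or above the first quartile of the PP2C genes. These are called genes of like brightness below. Shares of PP2C genes, here and below, keep the members dimmer than that quartile, so the sets differ at the dim end. Of the PP2C genes that passed, only OsPP2C59 was dimmer than the quartile. The share among the brighter PP2C genes was therefore above 32.1%. With 2 arrays per line, a p-value measures only the spread between such pairs of arrays. That spread was taken from the gene itself and, by the variance trend, from probe sets of like signal. The fit had 3 residual degrees of freedom beside a median of 8.98 prior ones.

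**Figure D1:**
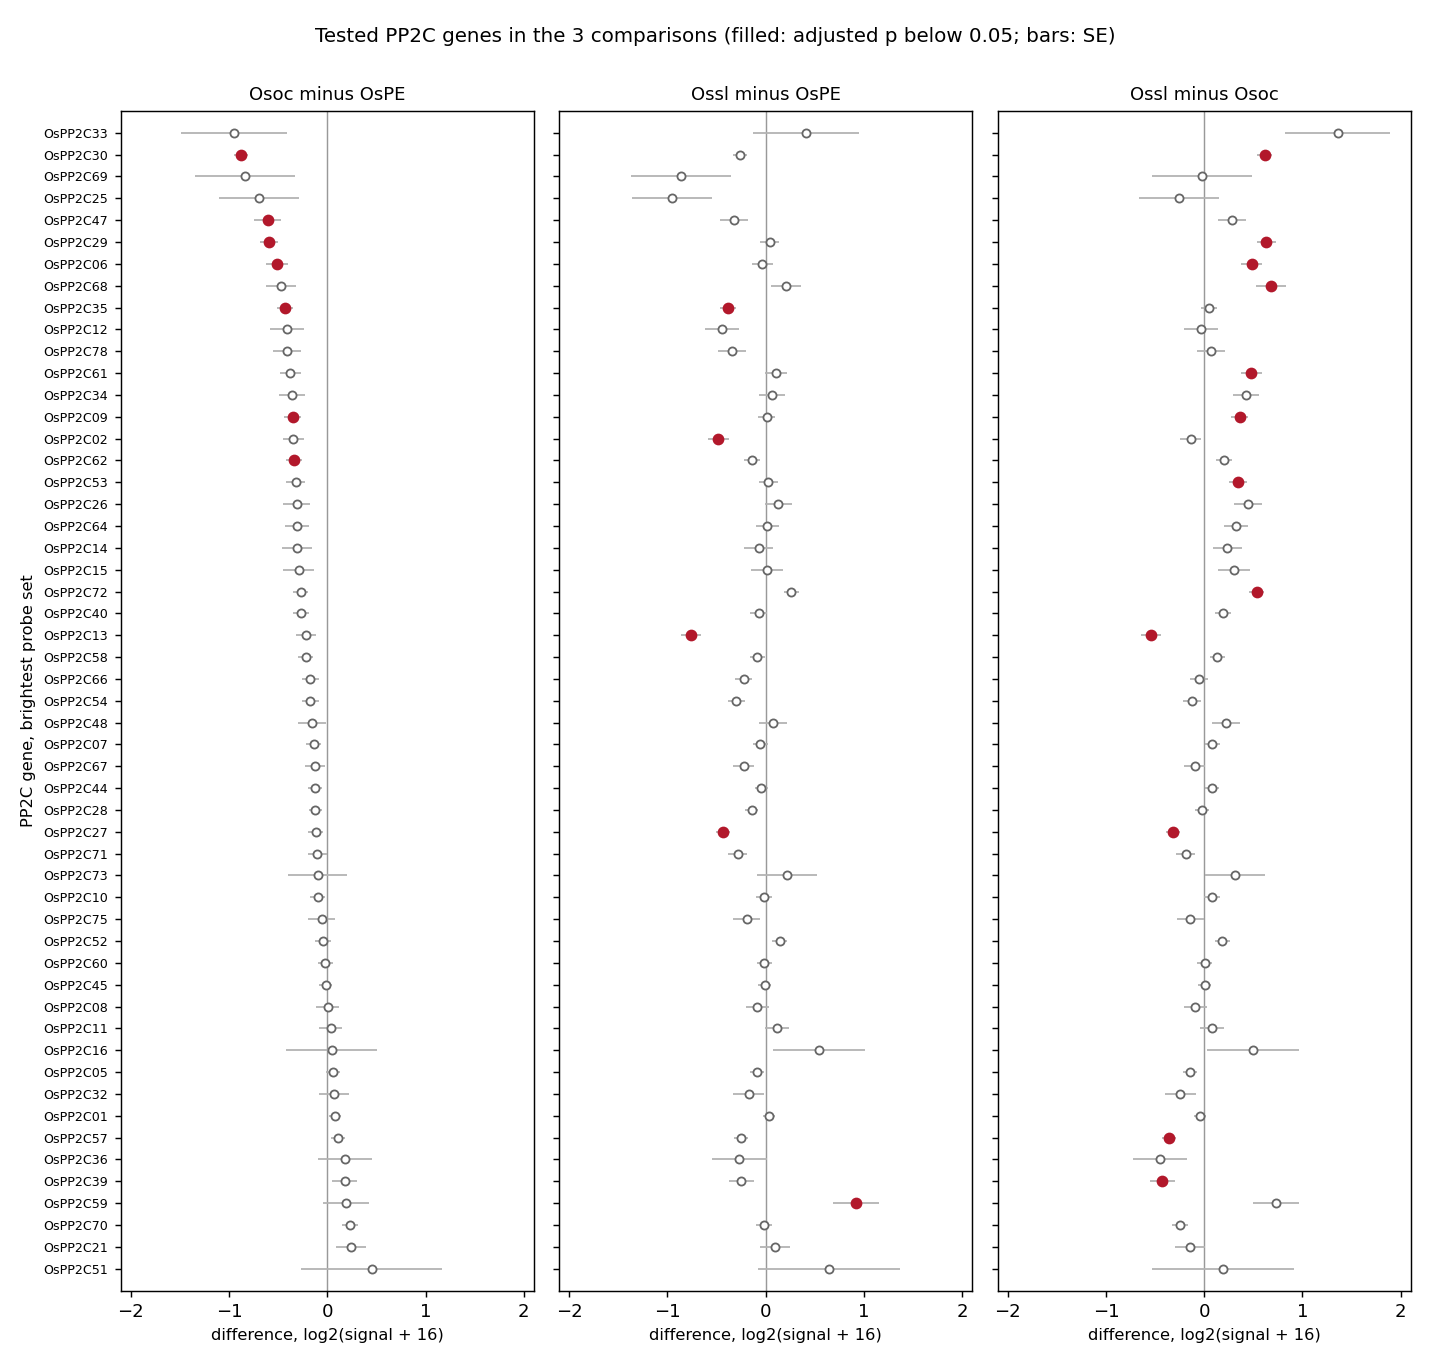
Difference between lines on the log2(signal + 16) scale (x axes) for the 53 tested PP2C genes (y axis), as points with the standard error of the fit as bars; filled points passed the adjusted p threshold of 0.05. In the comparison of Osoc with OsPE all 7 filled points lie left of 0, and in that of Ossl with Osoc 8 of 12 lie right of 0.

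Read by the brightest probe set, Osoc had less transcript than OsPE for 7 PP2C genes and more for none, beside 7.46% of all probe sets called in either direction. Those that fell were OsPP2C06, OsPP2C09, OsPP2C29, OsPP2C30, OsPP2C35, OsPP2C47 and OsPP2C62, and 46 did not pass. The lower genes were 13.2% of those tested, against 3.85% lower among all probe sets, 6.14% among all genes and 8.55% among genes of like brightness. On the higher side, where no PP2C gene passed, 3.61% of all probe sets did. At an unadjusted p below 0.05 (limma), 1 of the 53 PP2C genes was higher and 19 were lower. Among 9729 genes of like brightness, 1772 were higher and 1864 lower at that threshold. The median PP2C difference was -0.17 on the log2 scale, beside -0.03 over all probe sets. Of 53 differences 40 were below 0, beside 9158 of 16455 over all genes. For 35 PP2C genes both Osoc arrays lay below both OsPE arrays, or 66.0% beside 33.3% of all genes. For 5 both lay above, or 9.43% beside 25.2% of all genes.

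Between Ossl and OsPE, which share the OsPE arrays with the comparison above, 1 PP2C gene rose and 4 fell. OsPP2C59 was higher in Ossl, and OsPP2C02, OsPP2C13, OsPP2C27 and OsPP2C35 were lower. On the higher side 1.89% of PP2C genes passed, beside 4.11% of all probe sets and 9.17% of genes of like brightness. On the lower side 7.55% passed, beside 3.81% and 6.49%. These 5 genes made up 9.43% of the 53, near the 7.92% called among all probe sets and below the 15.7% among genes of like brightness. The median PP2C difference was -0.06, beside -0.02 over all probe sets.

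Between Ossl and Osoc 12 PP2C genes passed, or 22.6%, beside 11.2% of all probe sets and 23.6% of genes of like brightness. OsPP2C06, OsPP2C09, OsPP2C29, OsPP2C30, OsPP2C53, OsPP2C61, OsPP2C68 and OsPP2C72 were higher in Ossl. OsPP2C13, OsPP2C27, OsPP2C39 and OsPP2C57 were lower in Ossl. The genes higher in Ossl were 15.1%, beside 5.93% of all probe sets and 13% of genes of like brightness. Those lower were 7.55%, above the 5.27% of all probe sets and below the 10.6% of genes of like brightness. The median difference was 0.08, beside 0.00 over all probe sets. Since the Osoc arrays enter both this comparison and that of Osoc with OsPE, the values of each are given side by side below.

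By mean signal, Osoc was the lowest line for 28 of the 53 PP2C genes, or 52.8% beside 38.7% of all genes. OsPE was the highest line for 27, or 50.9% beside 34.6% of all genes. It was the lowest for 6, or 11.3% beside 27.9% of all genes. For 7 genes 1 line differed past the threshold, in 1 direction, from each of the others. Osoc was lower than both other lines for OsPP2C06, OsPP2C09, OsPP2C29 and OsPP2C30, which is 7.55% of the PP2C genes beside 1.82% of all probe sets and 4.46% of genes of like brightness. Ossl was lower than both for OsPP2C13 and OsPP2C27, 3.77% beside 1.83% of all probe sets and 2.63% of genes of like brightness. OsPE was higher than both for OsPP2C35 alone, 1.89% beside 1.01% of all probe sets and 2.14% of genes of like brightness. By its brightest probe set, no PP2C gene was higher in Osoc or in Ossl than in both other lines, or lower in OsPE, beside 1.69%, 2.32% and 1.1% of all probe sets. With all probe sets of a gene averaged, 9 genes set a line apart, among them OsPP2C45 and OsPP2C47.

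Of 9 clade A genes listed for rice, 7 had a probe set, and 3 of these 7 were lower in Osoc than in OsPE while none was higher, where 3.85% of all probe sets and 8.55% of genes of like brightness were lower. In Ossl 5 of the 7 were higher than in Osoc and none was lower, where 5.93% of all probe sets and 13% of genes of like brightness were higher. None passed between Ossl and OsPE by limma. At an unadjusted p below 0.05, 1 was lower and none higher, where 1641 of 9729 genes of like brightness were lower and 1804 higher. The median clade A difference was -0.35 in Osoc relative to OsPE, 0.01 in Ossl relative to OsPE and 0.36 in Ossl relative to Osoc. Among the 46 tested PP2C genes outside clade A, the medians were -0.145, -0.07 and 0.06. The counts depended on single arrays: between Osoc and OsPE 1 gene passed without either OsPE array or without the first Osoc array, and 2 without the second. Between Ossl and Osoc, 1 passed without the first Osoc array and 3 without the second, and 2 without the first Ossl array and 3 without the second.

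OsPP2C30 (LOC4332374) is a clade A phosphatase known in rice to bind the ABA receptor RCAR5 and the kinase SAPK2. Its signals were 2517 and 2720 in OsPE, 1400 and 1432 in Osoc, and 2163 and 2196 in Ossl. The 3 lines did not overlap, with OsPE highest, Ossl between and Osoc lowest. The mean was 2618 ± 143 (SD, n = 2) in OsPE, 1416 ± 22.1 in Osoc and 2180 ± 23.6 in Ossl. Osoc was 1.84-fold below OsPE, a log2 difference of -0.88 (SE 0.075, adjusted p = 2.96e-05, limma). Ossl was 1.53-fold above Osoc (adjusted p = 0.000198) and below OsPE by a log2 difference of -0.26 that did not pass (adjusted p = 0.0529). Both calls held with any 1 array left out. A single probe set covers this gene.

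OsPP2C06 (LOC4324201), also called OsABIL1, is a clade A gene named for its likeness to the Arabidopsis ABA-signalling phosphatase ABI1. It read 1862 and 1853 in OsPE, 1295 and 1295 in Osoc, and 2087 and 1578 in Ossl. Both Osoc arrays lay below the other 4, and the Ossl pair spanned the OsPE pair. Osoc was 1.43-fold below OsPE (log2 difference -0.52, SE 0.111, adjusted p = 0.014), and Ossl was 1.40-fold above Osoc (adjusted p = 0.0141). OsPP2C09, another clade A member, read 2628 and 2448 in OsPE, 1826 and 2154 in Osoc, and 2475 and 2632 in Ossl. The Osoc arrays again lay below all others. Osoc was 1.28-fold below OsPE (log2 difference -0.35, SE 0.088, adjusted p = 0.0297), and Ossl was 0.36 above Osoc on the log2 scale (adjusted p = 0.0189). Without any 1 of the 4 OsPE and Osoc arrays OsPP2C06 no longer passed against OsPE (adjusted p = 0.0881 to 0.0959), and OsPP2C09 did not without either OsPE array or the first Osoc array (adjusted p = 0.091 to 0.235). Between Ossl and Osoc, OsPP2C06 was lost without either Osoc array or the first Ossl array, and OsPP2C09 without the first Osoc or the second Ossl array.

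A further pair of clade A genes was low in Osoc by a margin that passed only against Ossl. OsPP2C53, or OsABIL2, a second ABI1-like phosphatase, read 1237 and 1098 in OsPE, 960 and 904 in Osoc, and 1228 and 1147 in Ossl. Ossl was 1.27-fold above Osoc (adjusted p = 0.0381), and Osoc against OsPE gave -0.32 (adjusted p = 0.071). OsPP2C68, known as OsPP108 and tied in earlier work to abiotic stress tolerance, read 587 and 478 in OsPE, 352 and 405 in Osoc, and 688 and 548 in Ossl. The Osoc pair lay below the other arrays for both genes. For OsPP2C68, Ossl was 1.60-fold above Osoc (log2 difference 0.68, SE 0.153, adjusted p = 0.0127), and Osoc against OsPE gave -0.47 (adjusted p = 0.0936). The OsPP2C68 call was lost without the first Osoc or the first Ossl array (adjusted p = 0.106 and 0.113), and that of OsPP2C53 without any 1 array other than the second of OsPE (adjusted p = 0.0509 to 0.202).

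The other clade A genes did not pass in any comparison. OsPP2C08 read 877 and 1043 in OsPE, 1023 and 902 in Osoc, and 963 and 841 in Ossl, so that all lines overlapped. OsPP2C51, a clade A phosphatase known to promote seed germination, was near the bottom of the scale, with 9.1 and 3.4 in OsPE, 28.8 and 4.3 in Osoc, and 46.7 and 2.9 in Ossl. It passed the filter on 2 arrays only, and its second probe set read 0.8 to 3.5 throughout.

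**Figure D2:**
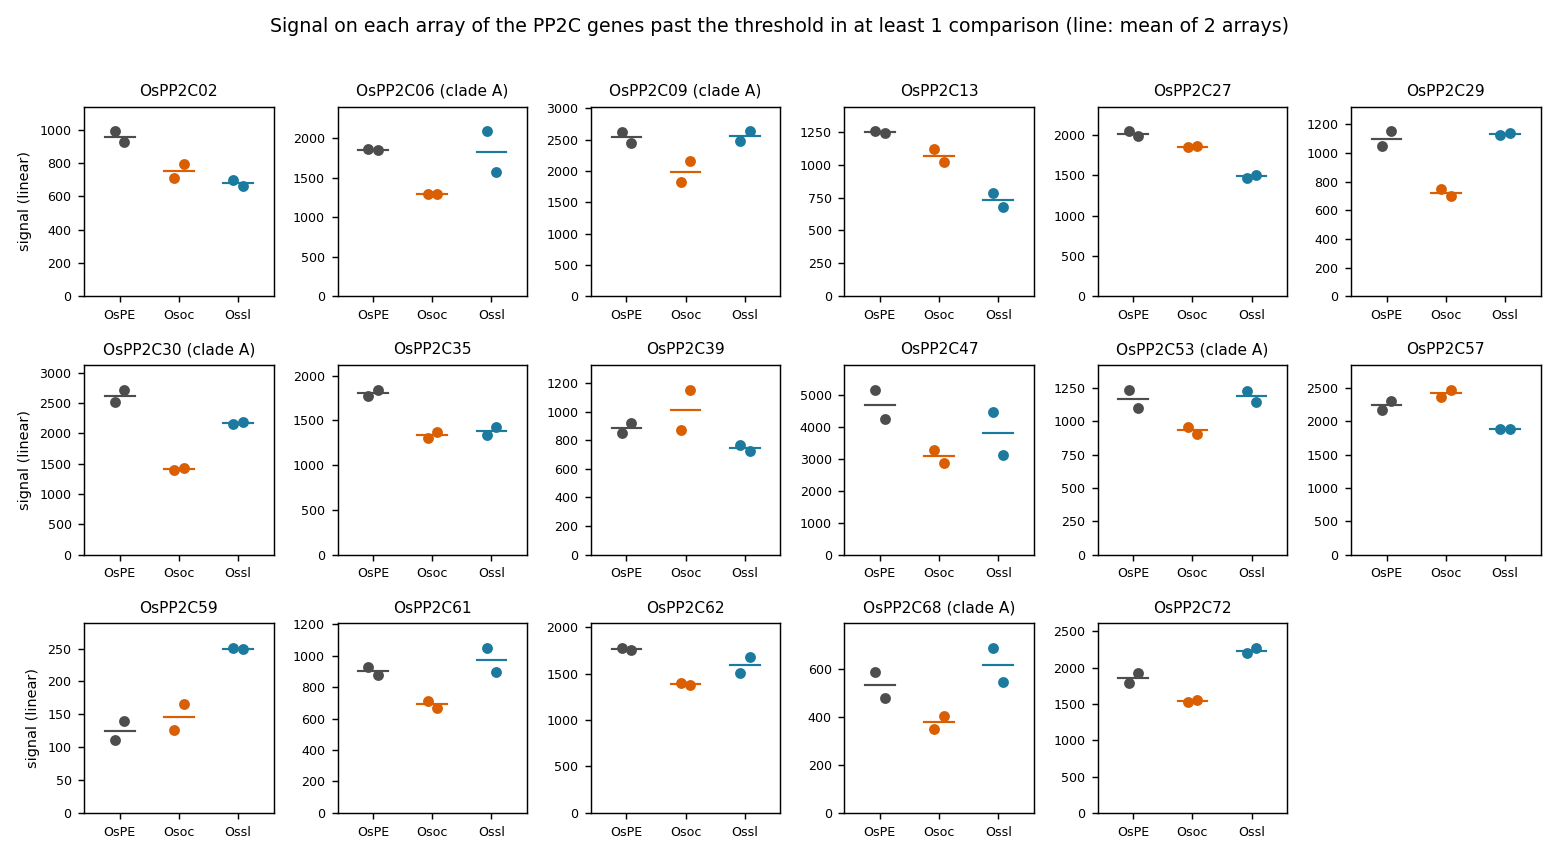
Linear signal on each array (y axes, each from 0) by line (x axes) for the 17 PP2C genes past the threshold in at least 1 comparison; points are arrays and lines are the mean of 2 arrays. OsPP2C30 reads 1400 and 1432 in Osoc, below every array of the other lines.

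Outside clade A, OsPP2C29 (LOC4332004) was also lowest in Osoc. It read 1049 and 1150 in OsPE, 745 and 701 in Osoc, and 1124 and 1136 in Ossl, with both Osoc arrays below all others. Osoc was 1.51-fold below OsPE (log2 difference -0.59, SE 0.095, adjusted p = 0.00242), and Ossl was 1.55-fold above Osoc (adjusted p = 0.000989). OsPP2C61 read 926 and 876 in OsPE, 713 and 668 in Osoc, and 1049 and 896 in Ossl. Here only Ossl over Osoc passed, at 1.40-fold (adjusted p = 0.0122), beside -0.38 for Osoc against OsPE (adjusted p = 0.056), and it did not without the second Osoc or the first Ossl array. OsPP2C72 read 1790 and 1931 in OsPE, 1523 and 1552 in Osoc, and 2200 and 2266 in Ossl. The 3 lines did not overlap for this gene, and Ossl was 1.45-fold above Osoc (log2 difference 0.53, SE 0.076, adjusted p = 0.000683). Neither of its differences from OsPE passed, at -0.27 in Osoc and 0.26 in Ossl.

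OsPP2C35 (LOC4334600) is XB15, which binds the rice immune receptor kinase XA21, removes its autophosphorylation and restrains resistance to bacterial blight. It read 1773 and 1842 in OsPE, 1301 and 1371 in Osoc, and 1339 and 1421 in Ossl. Both OsPE arrays lay above the other 4, and the Osoc and Ossl pairs overlapped. Osoc was 1.35-fold below OsPE (log2 difference -0.43, SE 0.081, adjusted p = 0.00652), and Ossl was 1.31-fold below OsPE (log2 difference -0.39, adjusted p = 0.0114). Ossl against Osoc gave 0.05 (adjusted p = 0.801). The Osoc call was lost without the second OsPE or the first Osoc array (adjusted p = 0.0793 and 0.0616), and the Ossl call without either OsPE array or the first Ossl array (adjusted p = 0.0598 to 0.118).

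The strongest fall in Ossl among the PP2C genes that passed was that of OsPP2C13. This gene (LOC4328913), DCW11, was first described from anthers of cytoplasmic male sterile rice. It read 1254 and 1244 in OsPE, 1118 and 1023 in Osoc, and 786 and 680 in Ossl. The lines did not overlap and Ossl was lowest, 1.69-fold below OsPE (log2 difference -0.76, SE 0.102, adjusted p = 0.0005) and 1.45-fold below Osoc (adjusted p = 0.00453). OsPP2C27 (LOC4331028), known to dephosphorylate the MAP kinase OsMAPK3 in cold signalling, had its lowest signals in Ossl as well. It read 2042 and 1989 in OsPE, 1850 and 1861 in Osoc, and 1467 and 1505 in Ossl. Ossl was 1.35-fold below OsPE (log2 difference -0.44, SE 0.074, adjusted p = 0.00289) and 1.25-fold below Osoc (adjusted p = 0.0152). Against Osoc, OsPP2C13 was lost without the first Osoc array (adjusted p = 0.0542) and OsPP2C27 without either Osoc array or the first Ossl array (adjusted p = 0.0583 to 0.0879). The summed root markers and the labelling controls were lowest in Ossl too, and their part in these values was not tested.

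Several PP2C genes passed in a single comparison. OsPP2C02 read 991 and 927 in OsPE, 709 and 798 in Osoc, and 701 and 663 in Ossl, with Ossl 1.40-fold below OsPE (adjusted p = 0.0145). OsPP2C59, a dim gene, read 111 and 140 in OsPE, 125 and 166 in Osoc, and 251 and 249 in Ossl. Among the brightest probe sets of the PP2C genes it was the only one to rise against OsPE, by 1.89-fold in Ossl (log2 difference 0.92, SE 0.234, adjusted p = 0.0313). OsPP2C62 read 1774 and 1755 in OsPE, 1396 and 1382 in Osoc, and 1512 and 1684 in Ossl, with Osoc 1.27-fold below OsPE (adjusted p = 0.0253). OsPP2C47 read 5149 and 4228 in OsPE, 3269 and 2860 in Osoc, and 4464 and 3110 in Ossl. The Ossl pair of OsPP2C47 was wide and overlapped both other lines, and Osoc was 1.52-fold below OsPE (adjusted p = 0.0208). Each of these calls was lost with some array left out: that of OsPP2C02 without either OsPE array or the second Ossl array, those of OsPP2C59 and OsPP2C62 without any 1 array of the lines compared, and that of OsPP2C47 without the first OsPE array or either Osoc array.

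Lower values in Ossl than in Osoc were found for a last pair of genes. OsPP2C57 read 2176 and 2311 in OsPE, 2373 and 2475 in Osoc, and 1888 and 1880 in Ossl, with Ossl 1.28-fold below Osoc (log2 difference -0.36, SE 0.072, adjusted p = 0.00651). OsPP2C39 read 856 and 922 in OsPE, 876 and 1155 in Osoc, and 766 and 724 in Ossl. Ossl was 1.34-fold below Osoc for OsPP2C39 (adjusted p = 0.0491), and this call was lost without any 1 array other than the first of Osoc. That of OsPP2C57 was lost without the second Osoc array (adjusted p = 0.0656). A single difference among the 53 genes reached 1 on the log2 scale, that of OsPP2C33, at 1.36 for Ossl against Osoc. OsPP2C33 was dim, with signals of 2.0 to 64.3, and did not pass (adjusted p = 0.143).

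OsPP2C45 (LOC4337276) was read by a pair of probe sets that disagreed. The brighter read 3546 and 3525 in OsPE, 3506 and 3491 in Osoc, and 3403 and 3621 in Ossl, with no difference past the threshold (adjusted p = 0.94 to 0.978). The dimmer read 95.7 and 69.1 in OsPE, 362 and 297 in Osoc, and 516 and 535 in Ossl. For the dimmer probe set the 3 lines did not overlap and OsPE was below both other lines past the threshold, with means of 82.4 ± 18.8 (SD, n = 2), 329 ± 46.2 and 526 ± 13.4. Osoc was 3.53-fold above OsPE (log2 difference 1.82, SE 0.198, adjusted p = 0.000198) and Ossl 5.55-fold above (log2 difference 2.47, adjusted p = 7.26e-06). Ossl against Osoc gave 0.66 (adjusted p = 0.054). With the mean of both probe sets OsPP2C45 passed against OsPE in either line, at 0.90 in Osoc and 1.23 in Ossl on the log2 scale. For the dimmer probe set both differences from OsPE passed with any 1 array left out, and without a variance trend only that of Ossl did. These were larger differences than that of any PP2C gene read by its brightest probe set. Both carry the suffix by which Affymetrix marks probes that match several transcripts of 1 gene, and the files do not say which transcript each reads.

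**Figure D3:**
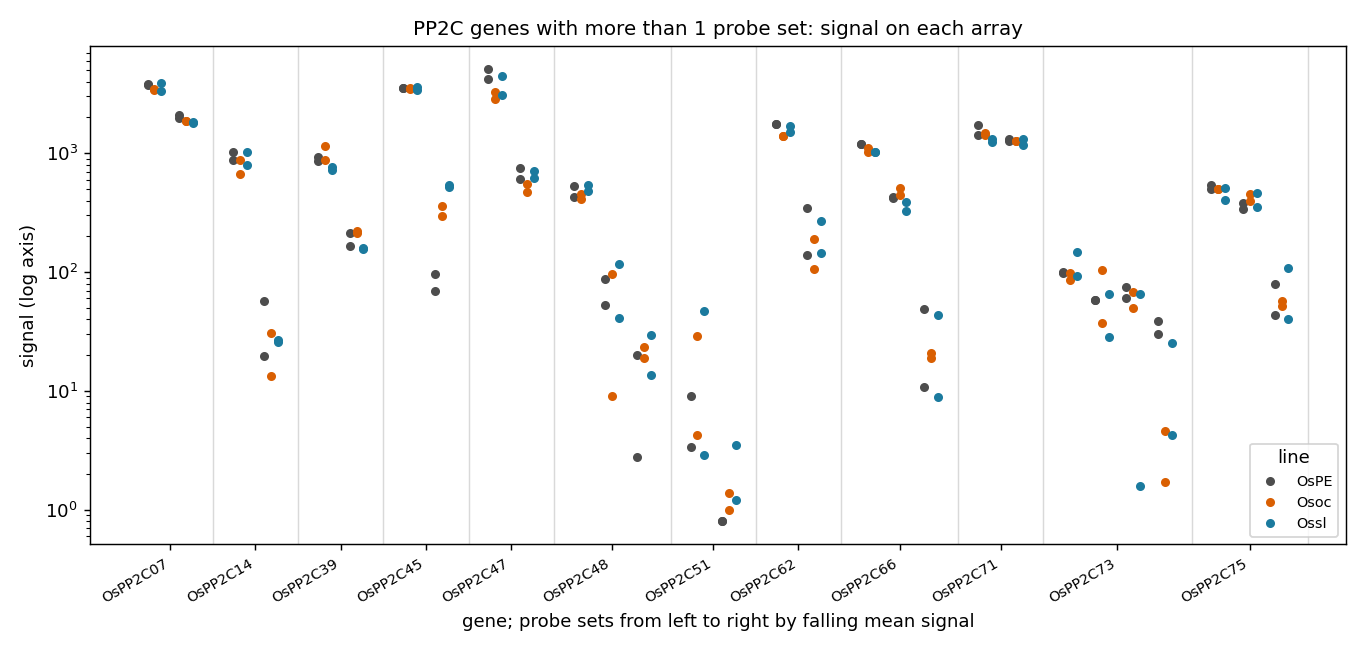
Linear signal on each array (y axis, log scale) for the PP2C genes with more than 1 probe set (x axis, probe sets of a gene from left to right by falling mean signal), coloured by line. The dimmer probe set of OsPP2C45 spreads from 69.1 to 535 while the brighter stays between 3403 and 3621.

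In all, 12 PP2C genes had 17 further probe sets, of which 16 were tested. The dimmer OsPP2C45 probe set was the only one of these to pass, in both comparisons with OsPE. Of 8 further probe sets with a mean signal of at least 100, the sign matched that of the gene's brightest probe set in 5 between Osoc and OsPE, in 6 between Ossl and OsPE and in 7 between Ossl and Osoc. Among genes that passed, the dimmer probe set of OsPP2C47 gave -0.40 for Osoc against OsPE (adjusted p = 0.124) and that of OsPP2C62 gave -0.59 (adjusted p = 0.47). The second probe set of OsPP2C39 gave -0.43 for Ossl against Osoc (adjusted p = 0.246), the same size as the first.

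The partners of clade A phosphatases in ABA signalling were read from lists of gene names. The receptor RCAR5, listed as OsPYL11, was the only receptor with a probe set of its own. It read 3430 and 3818 in OsPE, 3637 and 3707 in Osoc, and 3964 and 4374 in Ossl, and passed in no comparison by limma, with 1 unadjusted p below 0.05 for Ossl relative to each other line. All 10 SnRK2 kinases, SAPK1 to SAPK10, were tested. In Osoc 3 of them were below OsPE and none above. Lower calls were 3.85% of all probe sets, 6.14% of all genes and 8.55% of genes of like brightness. All 10 differences were below 0, with a median of -0.20 beside -0.03 over all probe sets. Those that fell were SAPK1 by 0.39 (adjusted p = 0.0124), SAPK2 by 0.34 (adjusted p = 0.0316) and SAPK3 by 0.32 (adjusted p = 0.0414) on the log2 scale. No SnRK2 kinase passed between these lines when any 1 of their 4 arrays was left out.

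The SnRK2 kinases were higher in Ossl than in Osoc for 5 of 10 and lower for none. Higher calls were 5.93% of all probe sets, 10.1% of all genes and 13% of genes of like brightness. The median was 0.25, beside 0.00 over all probe sets. SAPK7 read 549 and 651 in OsPE, 571 and 472 in Osoc, and 888 and 938 in Ossl. Ossl was 1.74-fold above Osoc for SAPK7 (adjusted p = 0.00166) and 1.51-fold above OsPE (adjusted p = 0.0132), the only SnRK2 difference that passed between those lines. SAPK3, SAPK6, SAPK4 and SAPK2 lay 0.55, 0.34, 0.28 and 0.29 above Osoc in log2 units (adjusted p = 0.00134 to 0.0437). The number that passed was 2 to 4 when 1 array was left out, with 2 without the second Osoc array. Against OsPE SAPK7 was lost without the first OsPE or the second Ossl array.

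Of the listed ABA transcription factors only 3 had a probe set, and 2 of these were tested. Both are bZIP factors of the kind that these kinases phosphorylate, and both were low in Osoc. Genes lower in Osoc than in OsPE were 3.85% of all probe sets, 6.14% of all genes and 8.55% of genes of like brightness. ABF2, also named bZIP23, read 4215 and 4202 in OsPE, 3223 and 3182 in Osoc, and 4122 and 4062 in Ossl. Both Osoc arrays lay below the other 4, 1.31-fold below OsPE (adjusted p = 0.00193), and Ossl was 1.28-fold above Osoc (adjusted p = 0.00249). TRAB1 fell by 0.34 in Osoc against OsPE (adjusted p = 0.0274) and did not pass between Ossl and Osoc. Without either OsPE array or the first Osoc array, 1 of the pair passed. VP1, a seed transcription factor that acts with TRAB1, was too dim to be tested. Of 3 genes of ABA synthesis and breakdown, the ABA 8'-hydroxylase gene ABA8OX1 fell against OsPE in Osoc by 0.37 (adjusted p = 0.0392) and in Ossl by 0.59 (adjusted p = 0.00251). Genes lower in Ossl than in OsPE were 3.81% of all probe sets, 4.7% of all genes and 6.49% of genes of like brightness. The Osoc call was lost without any 1 of the OsPE and Osoc arrays.

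Several genes known to be induced by ABA were higher in Osoc and Ossl than in OsPE. Of 8 tested, 3 were higher and none lower in Osoc than in OsPE, 5 were higher in Ossl than in OsPE, and 3 were higher in Ossl than in Osoc. The share higher over all probe sets was 3.61%, 4.11% and 5.93% in these comparisons. Over all genes it was 5.78%, 7.01% and 10.1%, and among genes of like brightness 8.9%, 9.17% and 13%. Without the second OsPE array 3 passed between Ossl and OsPE, and between Ossl and Osoc 1 passed without the second Osoc array and 2 without the first Osoc or the first Ossl array. The lectin gene salT read 78.7 and 96.7 in OsPE, 726 and 729 in Osoc, and 704 and 684 in Ossl. In Osoc it was 2.85 above OsPE on the log2 scale (adjusted p = 5.12e-07) and in Ossl 2.78 above (adjusted p = 2.27e-07). LEA19, a late embryogenesis abundant protein gene, was 2.91-fold and 2.73-fold above OsPE in Osoc and Ossl (adjusted p = 1.22e-05 and 8.25e-06). RAB21, a dehydrin gene, was 1.68-fold and 1.92-fold above OsPE (adjusted p = 0.000757 and 7.73e-05). The dehydrin gene Dhn1 had its lowest signals in Osoc, reading 1484 and 1435 in OsPE, 1222 and 1201 in Osoc, and 1978 and 1978 in Ossl, with Ossl 0.70 above Osoc on the log2 scale (adjusted p = 9.59e-05) and Osoc against OsPE at -0.27 (adjusted p = 0.0609).

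**Figure D4:**
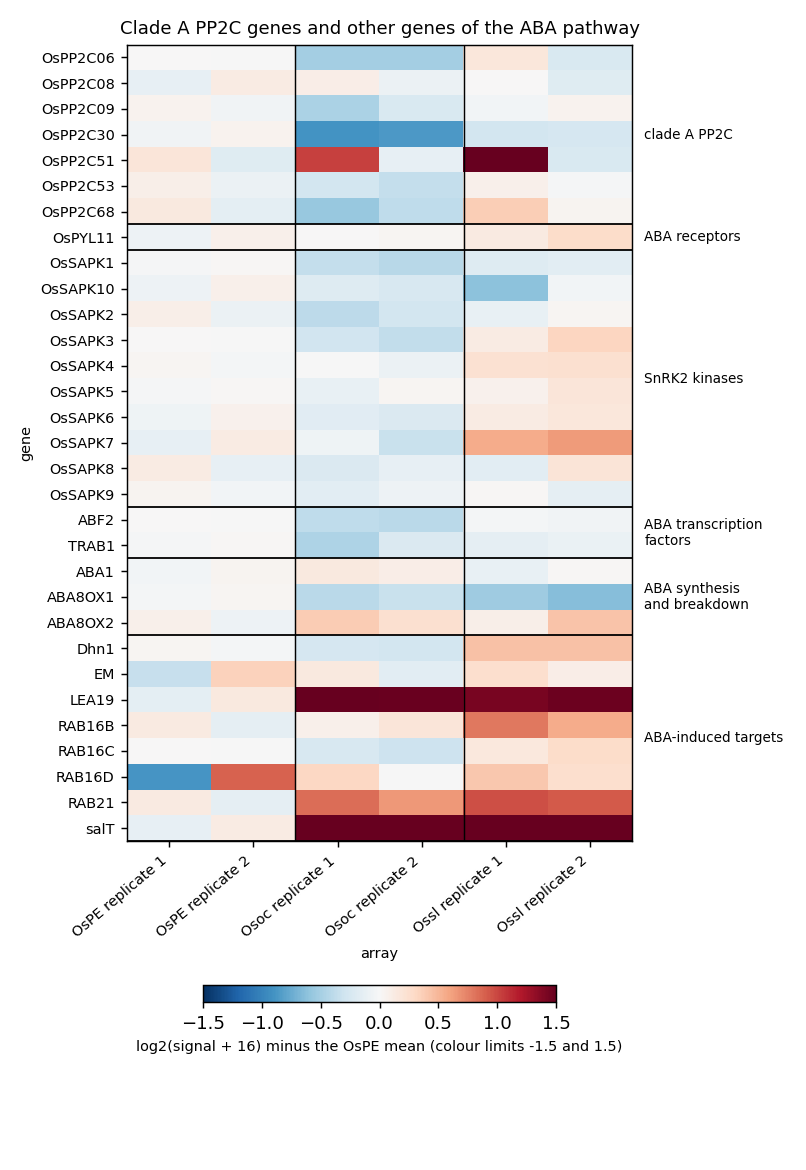
Signal of clade A PP2C genes and other ABA pathway genes (y axis) on each array (x axis), as colour for log2(signal + 16) minus the OsPE mean. OsPP2C30, at -0.88, and ABF2, at -0.39, are low in Osoc, while salT, at 2.85, is high there.

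A limit of all these calls is the estimate of spread from 2 arrays per line. A fit was also made with the same prior variance for all probe sets instead of one that follows the signal. There no PP2C gene read by its brightest probe set passed in any comparison by limma. The dimmer OsPP2C45 probe set still passed between Ossl and OsPE. Of all 39629 probe sets, 28, 382 and 402 passed in that fit. Leaving out any 1 of the 6 arrays in turn, OsPP2C29 and OsPP2C30 passed between Osoc and OsPE each time, OsPP2C13 and OsPP2C27 between Ossl and OsPE, and OsPP2C29, OsPP2C30 and OsPP2C72 between Ossl and Osoc. The number of genes passing between Osoc and OsPE was 3 without either OsPE array, 2 without the first Osoc array and 4 without the second. Between Ossl and OsPE it was 2 without either OsPE array and 3 without the second Ossl array, and between Ossl and Osoc it was 6 without either Osoc array.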

How the data were processed

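Total RNA was labelled as biotinylated cRNA and hybridised to 6 arrays, 2 per line. The deposited values are the authors' linear intensity per probe set, made with GCOS 1.2 per the submitters' processing notes. The algorithm behind the signal is not stated in the labels. Each array had a trimmed mean of about 500, so the arrays were taken as already scaled. Control probe sets (123) were removed, and probe sets were named through the platform annotation and RefSeq. Probe sets brighter than the array's 40th percentile (22.5 to 26.0) on 2 or more of 6 arrays were kept, which left 39629. One fit of log2(signal + 16) over the 3 lines was made with limma 3.58.1 (R 4.3.3; lmFit, eBayes with a variance trend), with 3 residual degrees of freedom and Benjamini-Hochberg adjustment over all kept probe sets. The fit was also run on data simulated with its own fitted variance trend, so that run cannot check the trend. All adjusted p-values in the text are from limma, two-sided.

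Genes named with values are those past the threshold in at least 1 comparison, the 2 brightest members, OsPP2C30 and OsPP2C45; OsPP2C08, OsPP2C33 and OsPP2C51 were added after their values were seen. Clade A membership and the other lists rest on textbook knowledge. The members and lists were chosen with earlier results of these data known, so their counts are descriptions. Alternatives were another offset, filter, scaling, prior, probe set rule, pair of lines, replicate block, and each array left out. The number of arrays limits the precision.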

Additional observations from a re-analysis of the deposited data

How the results depend on the processing

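The number of PP2C genes past the threshold was 7 between Osoc and OsPE, 5 between Ossl and OsPE and 12 between Ossl and Osoc, and 7 genes set a line apart. Without a variance trend these numbers were 0, 0, 0 and 0, when 28, 382 and 402 of all probe sets passed in the 3 comparisons. With a filter of 4 of 6 arrays, 8 genes passed for Ossl against OsPE. With each array left out in turn the numbers were 2 to 8, 2 to 5, 6 to 11 and, for genes that set a line apart, 2 to 8. For Ossl against OsPE they were 2 without either OsPE array, 4 without the first Ossl array and 3 without the second. For Ossl against Osoc they were 6 without either Osoc array. An arm left with 1 array was assumed to vary like the others. With the replicate number as a block, 8, 6 and 13 genes passed and 9 set a line apart, with no call lost. Same-numbered arrays of different lines did not deviate together (correlations of 0.000 to 0.014), so the numbers do not pair them. With an offset of 1 they were 7, 5 and 11, after quantile scaling 7, 5 and 11, after median centring 5, 5 and 9, and with no filter 5, 4 and 10. With all probe sets of a gene averaged they were 7 (1 higher, OsPP2C45, and 6 lower), 6 (2 higher, OsPP2C45 and OsPP2C59) and 12, and 9 set a line apart. No difference of a named PP2C gene that passed turned its direction under any alternative run. For the named genes of the other lists only the counts of each list were followed. For OsPP2C30 the adjusted p ranged from 8.44e-06 to 0.0974 for Osoc against OsPE and from 9.25e-05 to 0.0838 for Ossl against Osoc. The alternatives for genes that set a line apart were chosen after seeing the data. The cause of these changes was not tested.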

Other observations

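MAP kinases, which some PP2Cs outside clade A dephosphorylate, were read from a list of 16 tested genes of the MAP kinase cascade. Against OsPE, 2 genes fell in Osoc and none rose, and in Ossl 1 rose and 1 fell. Each is 12.5% of the list, beside 7.46% and 7.92% of all probe sets and 11.9% and 11.7% of all genes called. Among genes as bright as the PP2C genes by the cut above, 17.5% and 15.7% were called, more than in the list. MPK5 fell in Osoc by 0.65 on the log2 scale (adjusted p = 0.00142, limma) and was 0.63 higher in Ossl than in Osoc (adjusted p = 0.00107). MPK7 fell in Osoc by 0.39 (adjusted p = 0.0082). Without the second OsPE or the second Osoc array, 1 gene of the list passed between these lines. MPK13 was higher in Ossl than in OsPE by 0.59 (adjusted p = 0.0094) and higher than in Osoc by 0.62 (adjusted p = 0.00536). MPK8 fell in Ossl against OsPE by 0.25 (adjusted p = 0.0282). Between Ossl and OsPE none passed without the first OsPE or the second Ossl array, and 1 without the second OsPE array. In all, 4 of the 16 genes were higher and 2 lower in Ossl than in Osoc, or 37.5%. The share was 11.2% of all probe sets, 17.1% of all genes and 23.6% of genes of like brightness. That count of 6 was 3 without the first Osoc or the first Ossl array, 4 without the second Ossl array and 1 without the second Osoc array, and 0 without a variance trend. The median difference of the list was -0.14 in Osoc relative to OsPE, -0.11 in Ossl relative to OsPE and 0.08 in Ossl relative to Osoc, beside -0.03, -0.02 and 0.00 over all probe sets.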
